A study of Homo sapiens with 34 samples.

Results

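The 10 genes described here are targets of the aryl hydrocarbon receptor (AHR) or of the transcription factor NRF2: CYP1A1, CYP1B1, AHRR, TIPARP, NQO1, AKR1C1, AKR1C2, HMOX1, GCLM and TXNRD1. They were taken by symbol from a table of read counts for 26336 genes, and all 10 symbols were found. The table covers 34 poly(A)-selected RNA libraries of 4 human prostate cell lines in 17 groups. RWPE is labelled a non-tumorigenic prostate epithelial line, LNCaP a lymph node metastasis, and VCaP and MDAPCa2a bone metastases. Each was grown on plastic or on plates that carry a layer of amorphous calcium phosphate (ACP), used as a stand-in for bone mineral.

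All 4 lines have 2 libraries on plastic in control medium, the only group labelled continuous culture, while the other groups carry the label day 4. The treatment protocol instead describes plastic control flasks that were passaged and grown for 4 days, so how long that group had been in culture is unclear. RWPE, LNCaP and VCaP have 2 libraries each on ACP in control medium. LNCaP and MDAPCa2a have 2 libraries and VCaP has 1 on plastic with serum stripped by charcoal and dextran, a step that takes out most steroids. Those 3 lines have 2 libraries each on ACP with stripped serum. In every line ACP with androgen was sequenced, in 3 libraries of RWPE and 2 of each other line. The androgen is called DHT in the titles and testosterone in the treatment labels, in both at 100 mM. RWPE grew in a keratinocyte serum-free medium with epidermal growth factor and pituitary extract, and its androgen group has no stripped-serum partner. LNCaP was kept in RPMI and VCaP in a DMEM and F12 mixture, both with fetal bovine serum. MDAPCa2a had its own base medium with serum, on plastic coated with a protein mix that was not used on ACP. Nothing in the labels says that replicates came from separate cultures, so p-values measure the spread between these libraries, which may be technical.

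AHR is a cytosolic receptor for planar aromatic compounds and for metabolites such as tryptophan derivatives. Once bound, it moves to the nucleus, pairs with ARNT and binds a short element with the core GCGTG. CYP1A1 and CYP1B1, oxidases of aromatic hydrocarbons and of estrogens, are its classic targets, and AHRR and TIPARP are induced targets that dampen the receptor in return. NRF2, encoded by NFE2L2, is held and degraded through KEAP1 until oxidants or electrophiles modify KEAP1, after which it binds antioxidant response elements with a small MAF partner. NQO1 reduces quinones and is a target of both factors. GCLM is a subunit of the enzyme that starts glutathione synthesis, TXNRD1 reduces thioredoxin, and HMOX1 breaks down heme. AKR1C1 and AKR1C2 are reductases of ketosteroids and aldehydes, and AKR1C2 inactivates dihydrotestosterone, which links these genes to androgen metabolism in the prostate.

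Promoters of 5 members are shown, with CYP1A1 as an AHR target, GCLM and TXNRD1 for glutathione and thioredoxin, and the 2 aldo-keto reductases. The sequences are RefSeq entries of GRCh38.p14 that run from 250 bases before to 50 after a listed start. An entry was found for 8 of the 10 members, and not for CYP1B1 or HMOX1. Capitals mark TGACNNNGC, the searched core of the antioxidant response element, in GCLM and TXNRD1, and GCGTG in CYP1A1. Both strands were searched, so a match on the other strand appears as its reverse complement, and no 2 matches overlapped within these windows.
GCLM, chr1:93909381-93909680, minus strand: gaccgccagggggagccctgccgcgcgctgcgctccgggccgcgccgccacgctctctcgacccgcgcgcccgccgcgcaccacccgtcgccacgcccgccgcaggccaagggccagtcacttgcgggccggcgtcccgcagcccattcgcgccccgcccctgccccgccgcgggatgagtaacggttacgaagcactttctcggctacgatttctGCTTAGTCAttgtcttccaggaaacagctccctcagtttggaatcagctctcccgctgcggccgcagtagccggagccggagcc
TXNRD1, chr12:104286782-104287081, plus strand: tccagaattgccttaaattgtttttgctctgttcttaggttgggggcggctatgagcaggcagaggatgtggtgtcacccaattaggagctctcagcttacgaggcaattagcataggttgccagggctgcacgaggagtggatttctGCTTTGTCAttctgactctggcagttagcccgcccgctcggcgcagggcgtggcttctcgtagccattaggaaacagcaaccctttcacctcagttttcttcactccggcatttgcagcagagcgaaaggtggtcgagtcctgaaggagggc
CYP1A1, chr15:74725479-74725778, minus strand: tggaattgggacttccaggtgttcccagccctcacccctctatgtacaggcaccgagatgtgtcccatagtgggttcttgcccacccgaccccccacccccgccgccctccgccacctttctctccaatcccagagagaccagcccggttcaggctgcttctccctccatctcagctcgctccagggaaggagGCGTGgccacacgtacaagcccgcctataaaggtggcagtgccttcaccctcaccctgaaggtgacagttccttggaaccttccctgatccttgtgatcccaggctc
AKR1C1, chr10:4963165-4963464, plus strand: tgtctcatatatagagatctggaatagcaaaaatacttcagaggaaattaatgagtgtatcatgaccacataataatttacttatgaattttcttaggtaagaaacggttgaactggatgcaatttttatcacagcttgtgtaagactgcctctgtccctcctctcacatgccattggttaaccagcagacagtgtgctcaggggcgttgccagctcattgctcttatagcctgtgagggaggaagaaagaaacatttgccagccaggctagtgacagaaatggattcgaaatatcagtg
AKR1C2, chr10:5003808-5004107, minus strand: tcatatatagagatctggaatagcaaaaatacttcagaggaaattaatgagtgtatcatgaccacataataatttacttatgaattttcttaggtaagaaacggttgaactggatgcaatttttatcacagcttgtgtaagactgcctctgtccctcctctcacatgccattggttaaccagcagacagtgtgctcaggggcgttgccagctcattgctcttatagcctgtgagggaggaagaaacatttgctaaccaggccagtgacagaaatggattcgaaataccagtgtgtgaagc
The antioxidant motif began at position -34 from the listed start in GCLM and at -102 in this TXNRD1 promoter. CYP1A1 held GCGTG at -57, and in lower case GCLM held it on the other strand at -202 and -159 and TXNRD1 at -55. A second TXNRD1 entry, not shown, held the antioxidant motif at -99 and -8. The NQO1 window, not shown, held GCGTG on the other strand at position 1 and no match to the antioxidant motif. No match to either motif lay in the AKR1C1 or AKR1C2 window. Among 35116 RefSeq promoters of the same length, 36.5% held GCGTG and 13.3% held TGACNNNGC, so a match is common and is a description only. The AKR1C1 and AKR1C2 promoters were 97.3% identical over 296 aligned positions, with 4 mismatched and 4 gapped.

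Total counts ran from 34947115 to 44779246 reads in the 8 plastic control libraries and from 15440141 to 37015516 reads in the other 26. The 3 basal markers KRT5, KRT14 and TP63 summed to 3348 to 15698 CPM (reads scaled to library size) in RWPE and to 0.787 to 37.2 CPM in the other lines. The 5 luminal markers KLK3, KLK2, TMPRSS2, KRT8 and KRT18 summed to 798 to 1450 CPM in RWPE and 1267 to 15716 CPM in the others. ERG, which marks VCaP through its gene fusion, was at 126 to 882 CPM there and at most 2.32 CPM elsewhere. Plastic control libraries stood apart in other ways than surface and medium. A list of 10 hepatocyte genes, albumin among them, summed to 11.1 to 24.7 CPM in plastic control outside VCaP and to 0.445 to 3.21 CPM in the other libraries of those lines. In VCaP it summed to 78.5 to 162 and 30.5 to 328 CPM, with a read in all 10 genes and in 5 or 6. The 3 RNAs without a poly(A) tail, RPPH1, RMRP and RN7SK, of which at most 2 had reads, summed to 0.398 to 56.1 CPM in plastic control and 6.86 to 327 CPM elsewhere. In each comparison against plastic control, these differences and the surface or medium cannot be told apart.

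**Figure D1:**
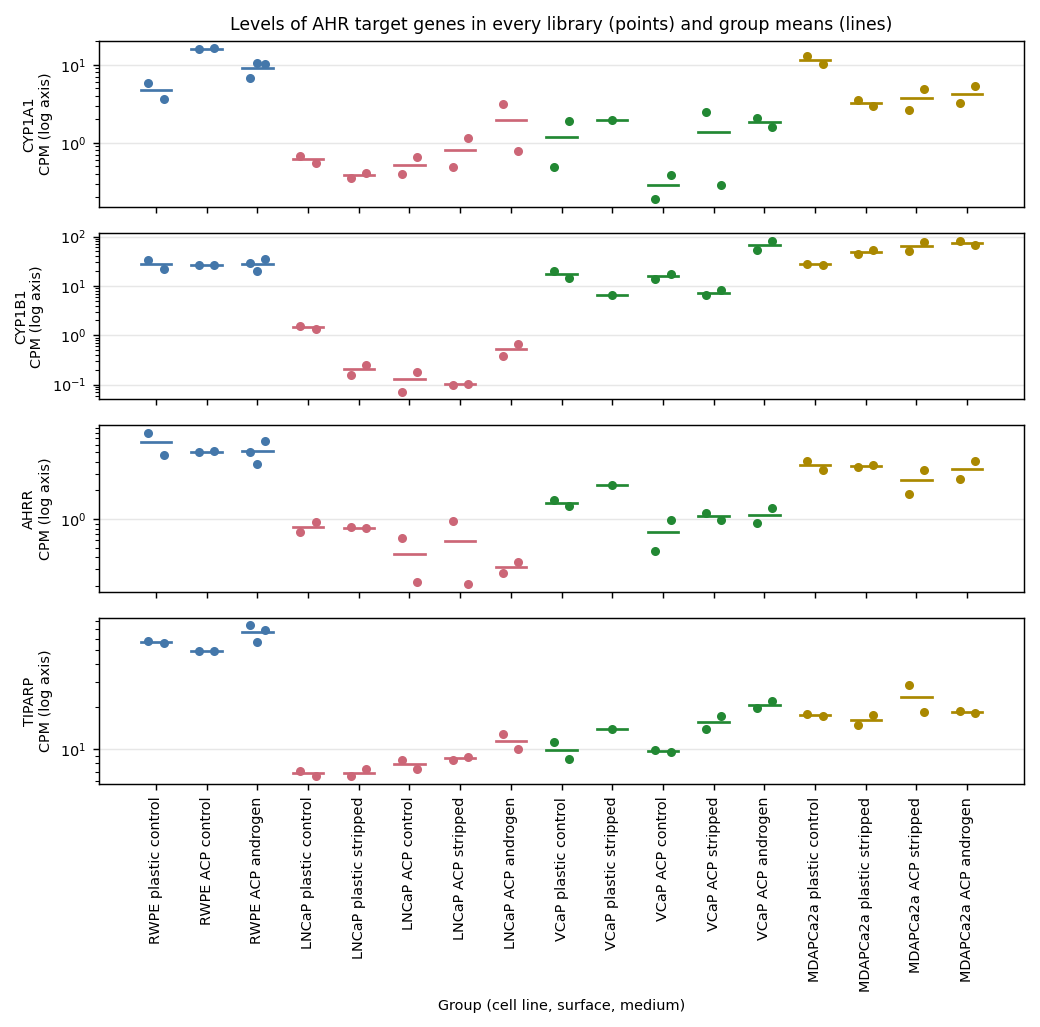
Levels of CYP1A1, CYP1B1, AHRR and TIPARP (CPM, log axis) in every library of the 17 groups, with points for libraries and lines for group means. LNCaP sits lowest for CYP1B1 in all 10 libraries, at no more than 1.56 CPM.

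The 4 AHR targets were lowest in LNCaP or VCaP and highest in RWPE or MDAPCa2a. CYP1A1 ran from 3.64 through a median of 10.3 to 16.3 CPM in the 7 RWPE libraries and from 2.67 through 4.24 to 13 CPM in the 8 MDAPCa2a libraries. In the 10 LNCaP libraries it ran from 0.359 through 0.604 to 3.18 CPM, and in the 9 VCaP libraries from 0.188 through 1.58 to 2.49 CPM. LNCaP and VCaP overlapped for CYP1A1, as did RWPE and MDAPCa2a, and 1 LNCaP library at 3.18 CPM reached into the MDAPCa2a range. Within RWPE the ACP control libraries were highest, and within MDAPCa2a the plastic control libraries.

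CYP1B1 is the oxidase that acts on estradiol. Its levels were 20.0 to 34.4 CPM in RWPE with a median of 26.6, and 26.8 to 82.5 CPM in MDAPCa2a with a median of 52.2. In VCaP it ran from 6.44 through 14.7 to 80.0 CPM. In LNCaP the libraries held only 2 to 74 reads of CYP1B1, or 0.0715 through 0.219 to 1.56 CPM, so every LNCaP library lay below every library of the other lines. By group mean, CYP1B1 was highest in MDAPCa2a on ACP with androgen, at 75.2 ± 10.4 CPM (SD, n = 2). VCaP on ACP with androgen followed at 66.5 ± 19.1 CPM and MDAPCa2a on ACP with stripped serum at 64.2 ± 17.3 CPM, and the libraries of these 3 groups overlapped. The next was MDAPCa2a on plastic with stripped serum at 48.1 ± 6.3 CPM. The RWPE groups and MDAPCa2a plastic control lay together at 26.5 to 28.0 CPM, and the 5 LNCaP groups came last at 0.101 to 1.45 CPM.

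AHRR, the repressor that competes with AHR for ARNT, was at 3.82 through 5.01 to 7.96 CPM in RWPE and at 1.84 through 3.40 to 4.05 CPM in MDAPCa2a. It was at 0.470 through 1.17 to 2.26 CPM in VCaP and 0.210 through 0.692 to 0.970 CPM in LNCaP, where counts were 6 to 42. Neighbouring lines in this order overlapped. TIPARP, a mono-ADP-ribosyltransferase that limits AHR signalling, came next. RWPE lay at 48.9 through 56.7 to 74.4 CPM, above all libraries of the other lines, and MDAPCa2a at 14.9 through 17.9 to 28.6 CPM. VCaP held 8.58 through 13.8 to 21.9 CPM and LNCaP 6.47 through 7.89 to 12.9 CPM, with overlap between VCaP and both of its neighbours.

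**Figure D2:**
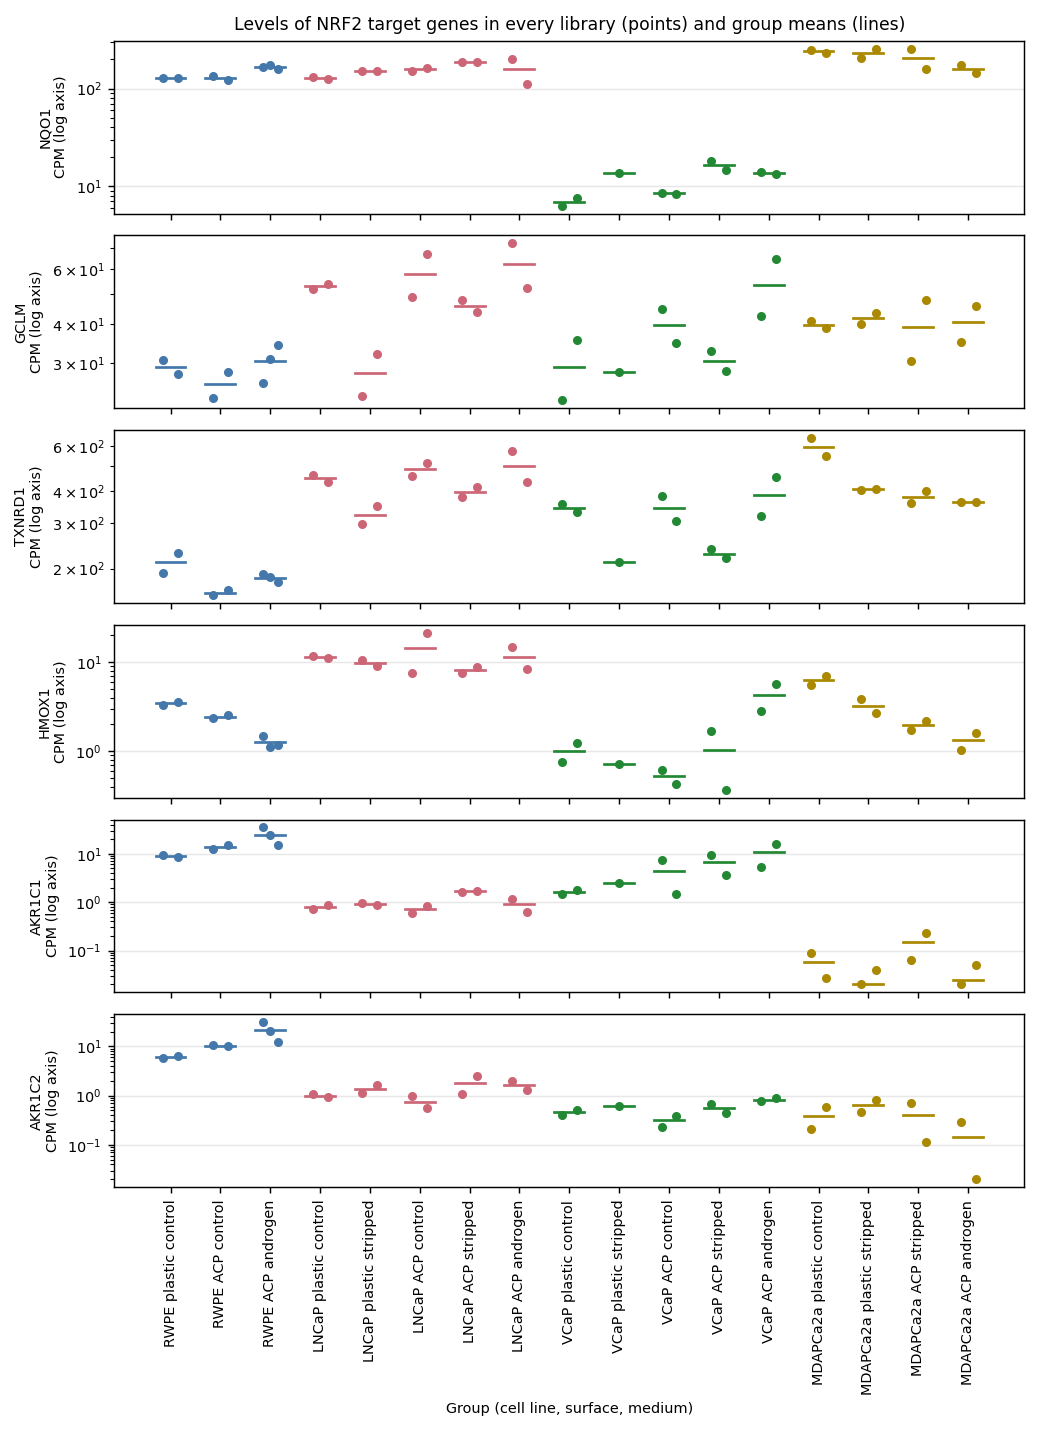
Levels of NQO1, GCLM, TXNRD1, HMOX1, AKR1C1 and AKR1C2 (CPM, log axis) in every library of the 17 groups, with points for libraries and lines for group means. Libraries without a read are drawn at the foot of the axis. The 9 VCaP libraries lie apart for NQO1, at 6.33 to 18.2 CPM against at least 112 CPM in the others.

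The NRF2 targets did not share 1 order over the lines. NQO1, the quinone reductase, was at 124 through 134 to 176 CPM in RWPE, 112 through 153 to 202 CPM in LNCaP and 144 through 217 to 257 CPM in MDAPCa2a, and these 3 lines overlapped. VCaP held 6.33 through 13.3 to 18.2 CPM, so that each VCaP library was below each library of the other lines. TXNRD1, the thioredoxin reductase, was lowest in RWPE at 158 through 185 to 231 CPM. It was at 213 through 320 to 455 CPM in VCaP, 361 through 403 to 643 CPM in MDAPCa2a and 299 through 434 to 571 CPM in LNCaP, all of which overlapped. GCLM had line medians of 28.1 CPM in RWPE, 34.6 in VCaP, 40.4 in MDAPCa2a and 50.3 in LNCaP, and with overlap between every pair of lines.

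HMOX1, heme oxygenase 1, was highest in LNCaP at 7.57 through 9.75 to 21.5 CPM, above every other library. MDAPCa2a held 1.03 through 2.44 to 7.09 CPM, RWPE 1.12 through 2.35 to 3.57 CPM and VCaP 0.369 through 0.758 to 5.74 CPM, all overlapping. AKR1C1 was highest in RWPE at 8.60 through 15.1 to 34.9 CPM, then in VCaP at 1.47 through 3.69 to 16.2 CPM and LNCaP at 0.608 through 0.864 to 1.68 CPM, with overlap from each to the next. MDAPCa2a had 0 to 4 AKR1C1 reads per library and at most 0.232 CPM. The 2 MDAPCa2a libraries with 0 reads allow up to 0.0996 and 0.172 CPM, taking 3 reads as the limit and counting error only. AKR1C2 was at 5.94 through 10.6 to 31.2 CPM in RWPE, above all other libraries. LNCaP held 0.548 through 1.11 to 2.56 CPM of AKR1C2, VCaP 0.235 through 0.506 to 0.876 CPM, and MDAPCa2a 0 through 0.376 to 0.807 CPM. The 1 MDAPCa2a library without an AKR1C2 read, the ACP androgen replicate 2, allows up to 0.152 CPM.

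Differences between lines were tested in 1 edgeR quasi-likelihood fit of all 34 libraries with Benjamini-Hochberg adjustment over 17323 genes, in the plastic control and in the ACP androgen groups, the 2 conditions that all lines share. The lines also differ in medium, which cannot be told apart from the line. All 10 members passed the filter on low counts in this fit. In plastic control, LNCaP minus RWPE gave 3 members higher and 6 lower, where 57.4% of all genes were called, 29.5% higher and 27.9% lower. On ACP with androgen it again gave 3 and 6, where 66.9% were called, 32.2% higher and 34.8% lower. VCaP minus RWPE gave 1 higher and 8 lower in plastic control (62.4% of all genes, 32.1% and 30.3%) and 4 higher and 6 lower on ACP with androgen (67.4%, 32.8% and 34.6%). MDAPCa2a minus RWPE gave 2 higher and 3 lower in both conditions, with 56.7% of all genes called in the first (28.3% and 28.4%) and 64.0% in the second (29.9% and 34.2%). These shares of all genes show how far the lines differ as a whole.

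Among the metastatic lines, VCaP minus LNCaP gave 2 higher and 3 lower in plastic control (52.6% of all genes, 27.0% and 25.7%) and 4 and 2 on ACP with androgen (56.0%, 28.5% and 27.5%). MDAPCa2a minus LNCaP gave 5 higher and 1 lower in plastic control (40.2%, 19.3% and 21.0%) and 3 and 5 on ACP with androgen (45.3%, 21.3% and 24.0%). MDAPCa2a minus VCaP gave 7 higher and 1 lower (52.4%, 25.1% and 27.3%) and then 2 and 3 (51.4%, 24.5% and 26.8%). Libraries of plastic control stand apart, so the ACP androgen values are the ones without them.

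TIPARP was lower in each of the other 3 lines than in RWPE in both conditions. In plastic control the log2 differences were -3.07 ± 0.21 (SE) in LNCaP, -2.53 ± 0.21 in VCaP and -1.70 ± 0.20 in MDAPCa2a. On ACP with androgen they were -2.54 ± 0.20, -1.69 ± 0.19 and -1.87 ± 0.19, with adjusted p of at most 7.2e-08 over the 6 tests by edgeR. TXNRD1 was higher than in RWPE in all 6 tests, by 0.70 ± 0.17 to 1.49 ± 0.18 on the log2 scale. CYP1B1 was lower in LNCaP than in RWPE by -4.25 ± 0.31 in plastic control and -5.74 ± 0.35 on ACP with androgen. AKR1C2 was lower than in RWPE in each of the 6 tests, from -2.62 ± 0.54 in LNCaP plastic control to -7.25 ± 0.74 in MDAPCa2a on ACP with androgen, where 5 reads were counted in 1 library and 0 in the other. NQO1 differed from RWPE by -4.21 ± 0.24 and -3.61 ± 0.23 in VCaP, while in LNCaP the differences were 0.00 ± 0.21 and -0.08 ± 0.19 with adjusted p of 1.0 and 0.72 by edgeR. The second hung on 1 library, since NQO1 read 202 and 112 CPM in LNCaP and without LNCaP replicate 1 the difference was -0.57 (adjusted p = 0.023).

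AKR1C1 in MDAPCa2a rested on few reads, so ratios with exact 95% counting intervals are given in place of fitted values. In plastic control 4 reads were counted in MDAPCa2a, and RWPE, VCaP and LNCaP were 156 (60.7 to 574), 29 (11.1 to 108) and 14.0 (5.22 to 52.5) times higher. On ACP with androgen only 1 read was counted, and the ratios were 885 (158 to 34964), 401 (71.7 to 15884) and 33.1 (5.70 to 1333). AKR1C1 was thus lower in MDAPCa2a than in each other line beyond counting error in both conditions.

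**Figure D3:**
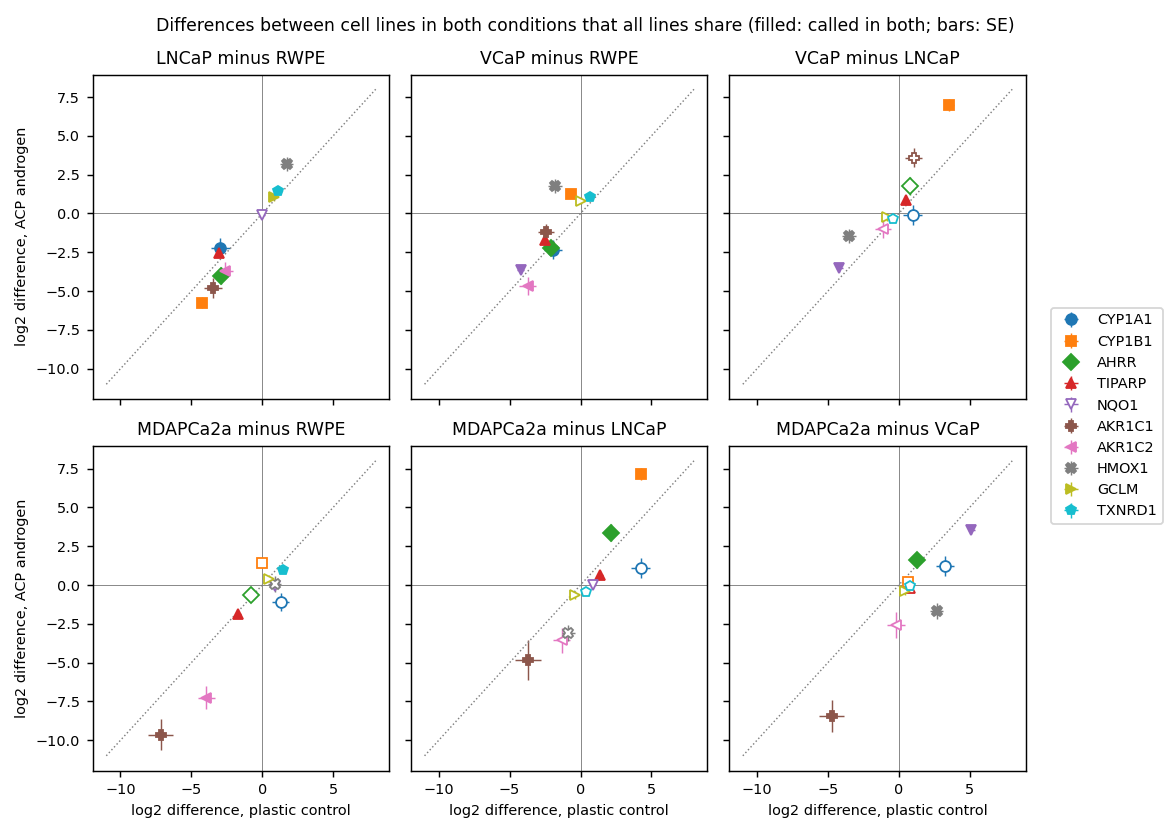
Log2 differences between lines for the 10 members, in plastic control (x axis) and on ACP with androgen (y axis), with bars of 1 SE and filled symbols where both passed an adjusted p of 0.05. The dotted line marks equality, and HMOX1 lies on opposite sides of 0 for VCaP minus RWPE, at -1.78 and 1.77. Fitted values of AKR1C1 in MDAPCa2a rest on 1 to 4 reads.

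In 3 instances a member passed in both conditions with opposite signs. HMOX1 was lower in VCaP than in RWPE in plastic control (-1.78 ± 0.49, adjusted p = 0.0027 by edgeR) and higher on ACP with androgen (1.77 ± 0.45, adjusted p = 0.0013). The libraries read 3.34 and 3.57 CPM in RWPE against 0.758 and 1.23 CPM in VCaP in the first, and 1.12 to 1.5 against 2.86 and 5.74 CPM in the second. HMOX1 in MDAPCa2a minus VCaP went from 2.66 ± 0.49 to -1.69 ± 0.51, and CYP1B1 in VCaP minus RWPE from -0.68 ± 0.27 to 1.25 ± 0.24. The change between conditions was not tested for these pairs. Both HMOX1 calls of VCaP minus RWPE passed without any 1 library. The CYP1B1 call in plastic control was lost without RWPE replicate 1 (-0.39) or VCaP replicate 2 (-0.48), and that of HMOX1 in MDAPCa2a minus VCaP on ACP without MDAPCa2a replicate 1 (-1.41) or VCaP replicate 2 (-1.07).

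Several smaller differences between lines also lost their call when 1 library was left out. In plastic control these were CYP1A1 in VCaP minus RWPE (-1.97 ± 0.64, -1.62 without RWPE replicate 1, -1.32 without VCaP replicate 1) and GCLM in VCaP minus LNCaP (-0.86 ± 0.25, -0.57 without VCaP replicate 1). TIPARP in VCaP minus LNCaP was 0.54, and lost its call without LNCaP replicate 1 (0.61), LNCaP replicate 2 (0.47) or VCaP replicate 1 (0.34). CYP1B1 in MDAPCa2a minus VCaP was 0.66, and lost its call without MDAPCa2a replicate 1 (0.63), MDAPCa2a replicate 2 (0.70) or VCaP replicate 2 (0.46). It also did so with DESeq2 (0.57) and with other size factors (0.57). On ACP with androgen, CYP1A1 in LNCaP minus RWPE was -2.21 ± 0.60 and -1.53 without LNCaP replicate 2, which lost the call. AKR1C1 in VCaP minus RWPE was -1.20 ± 0.50 and lost its call without RWPE replicate 1 (-0.80), RWPE replicate 2 (-1.11) or VCaP replicate 1 (-0.61). GCLM in VCaP minus RWPE was 0.81 ± 0.23 and 0.55 without VCaP replicate 2. In VCaP minus LNCaP, HMOX1 was -1.43, and lost its call without LNCaP replicate 1 (-0.95) or VCaP replicate 1 (-1.01). AHRR was 1.79 there, and lost it without LNCaP replicate 1 (1.62) or VCaP replicate 2 (1.48). In MDAPCa2a minus LNCaP, GCLM was -0.62, and lost its call without LNCaP replicate 1 (-0.36) or MDAPCa2a replicate 1 (-0.45). TXNRD1 was -0.47 there, and lost it without LNCaP replicate 1 (-0.26) or MDAPCa2a replicate 1 (-0.47) or 2 (-0.47). TIPARP there was 0.67 and 0.51 without LNCaP replicate 2. AKR1C2 in MDAPCa2a minus VCaP was -2.57, and lost its call without MDAPCa2a replicate 2 (-1.52) or VCaP replicate 2 (-2.45). AHRR in MDAPCa2a minus VCaP lost its call without 1 library in both conditions, from 1.31 ± 0.46 to 1.14 without MDAPCa2a replicate 1, 1.41 without VCaP replicate 1 and 1.21 without VCaP replicate 2 in plastic control, and from 1.59 ± 0.49 to 1.24 without MDAPCa2a replicate 2 and 1.35 without VCaP replicate 1 on ACP with androgen. Calls were gained in the same way. On ACP with androgen, CYP1A1 in MDAPCa2a minus LNCaP was 1.11, and 2.44 without LNCaP replicate 1. TXNRD1 in VCaP minus LNCaP was -0.37, and -0.56 without LNCaP replicate 2 or -0.67 without VCaP replicate 2. GCLM in MDAPCa2a minus RWPE was 0.41, and 0.62 without RWPE replicate 3. In plastic control, AKR1C2 in MDAPCa2a minus LNCaP was -1.33, and -2.24 without MDAPCa2a replicate 2. GCLM in MDAPCa2a minus VCaP was 0.45, and 0.80 without VCaP replicate 2.

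**Figure D4:**
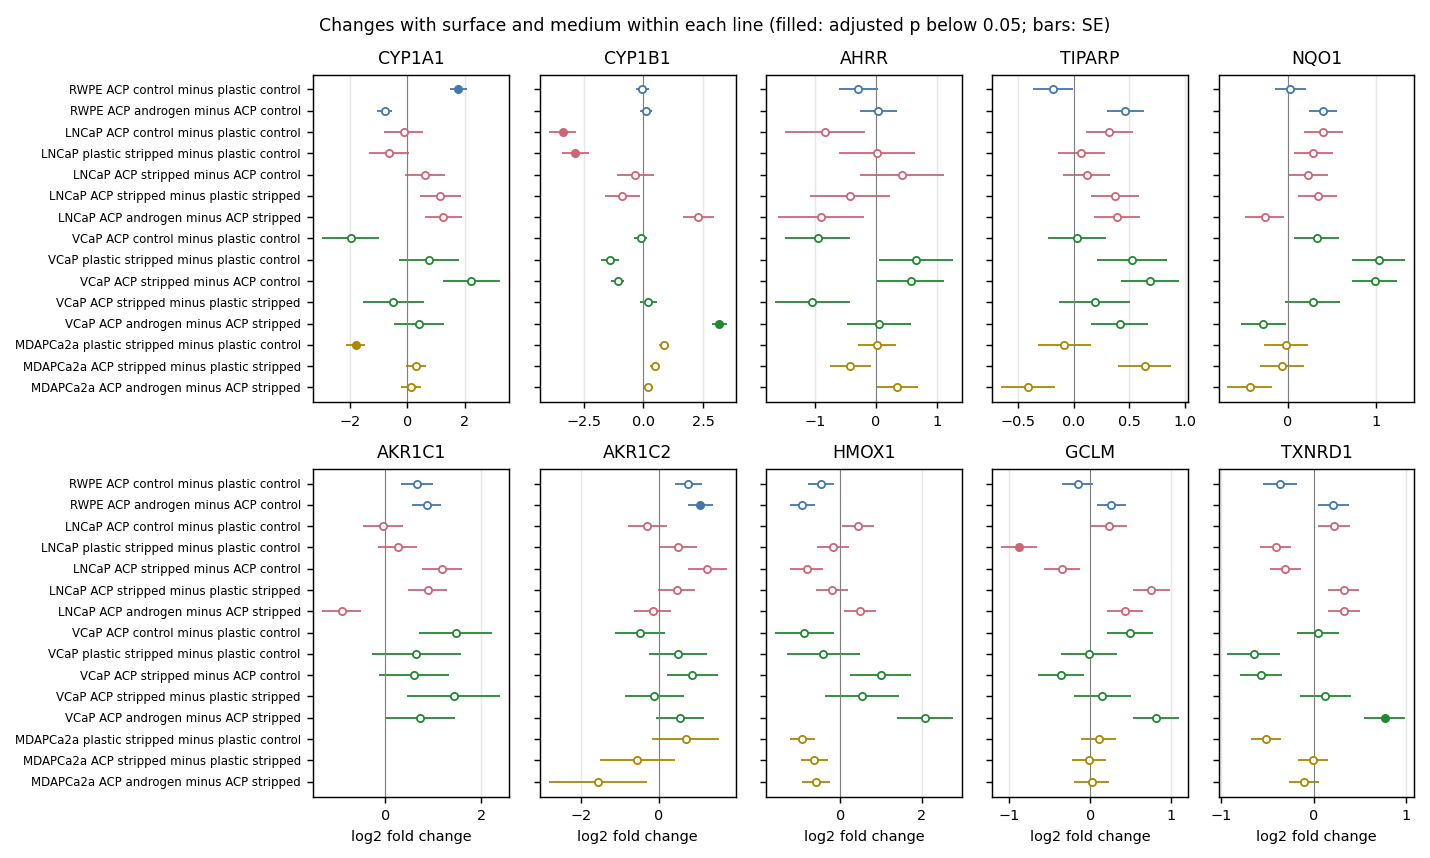
Log2 fold changes of each member in the 15 comparisons of surface or medium within a line, with bars of 1 SE and filled points where the adjusted p was below 0.05. AKR1C1 was too low to test in MDAPCa2a. CYP1B1 holds 3 of the filled points, at -3.38 and -2.84 in LNCaP and 3.19 in VCaP.

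Within a line, few members passed the threshold, which with so few libraries does not show that the others stayed the same. In RWPE on ACP against plastic control, CYP1A1 rose from 5.92 and 3.64 CPM to 16 and 16.3 CPM, with no overlap, a log2 fold change of 1.78 ± 0.29 (adjusted p = 0.013 by edgeR). It was the 1 of 10 members that passed, against 4.16% of 14293 genes (2.83% higher, 1.33% lower). The call was lost without ACP control replicate 1 (1.80), ACP control replicate 2 (1.75) or plastic control replicate 2 (1.47), and with the fit of all lines (1.76). The adjusted p ran from 0.03 to 0.165 over the 4 fits that each left out a library. AKR1C1 and AKR1C2 had log2 differences of 0.66 ± 0.33 and 0.76 ± 0.35 that did not pass. In bulk RNA, fewer cells of a type and less RNA per cell cannot be told apart.

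With androgen on ACP against ACP control medium, RWPE gave 1 of 10 members called, against 19.1% of all genes (11% higher, 8.05% lower). AKR1C2, which reduces dihydrotestosterone, rose from 10.6 and 9.98 CPM to 31.2, 20.4 and 12.4 CPM (1.07 ± 0.32, adjusted p = 0.043 by edgeR). AKR1C1 stood at 12.6 and 15.2 CPM before and 34.9, 24.6 and 15.1 CPM after, with overlap and 0.86 ± 0.30 (adjusted p = 0.069). Both paralogs were highest in replicate 1 and lowest in replicate 3 of the androgen group. The AKR1C2 call was lost without androgen replicate 1 (0.69) or 2 (1.10) and without ACP control replicate 1 (1.05) or 2 (1.05). HMOX1 was at 2.35 and 2.53 CPM before and 1.5, 1.12 and 1.17 CPM after (-0.93 ± 0.31, adjusted p = 0.056), and CYP1A1 at 16 and 16.3 against 6.70, 10.5 and 10.3 CPM (-0.79 ± 0.26, adjusted p = 0.052). Neither passed, although the libraries did not overlap. Without androgen replicate 3, AKR1C1 (1.13), CYP1A1 (-0.88), NQO1 (0.44) and TIPARP (0.44) also passed. In all, 6 of the 10 members had an unadjusted p under 0.05 here, and DESeq2 called 5. The 19.1% of all genes is by edgeR at the adjusted threshold, so it is no background for these counts.

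In LNCaP, CYP1B1 fell against plastic control both on ACP and in stripped serum. On plastic control its libraries held 74 and 61 reads, or 1.56 and 1.35 CPM. ACP in control medium held 2 and 5 reads (0.0715 and 0.183 CPM), and plastic with stripped serum 6 and 5 reads (0.154 and 0.255 CPM). The log2 fold changes were -3.38 ± 0.58 (adjusted p = 0.010 by edgeR) and -2.84 ± 0.55 (adjusted p = 0.0095). The first was 1 of 10 members called against 12.6% of 14656 genes (6.74% higher, 5.85% lower), and the second was 1 of 2 against 9.45% (4.61% higher, 4.84% lower). Both rest on the plastic control libraries, the only LNCaP libraries with over 20 CYP1B1 reads. The call on ACP was lost without ACP control replicate 1 (-2.91) and without plastic control replicate 1 (-3.28) or 2 (-3.47). That in stripped serum missed it without plastic control replicate 1 (-2.73) or 2 (-2.92) and without stripped replicate 1 (-2.40).

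GCLM, the glutathione synthesis subunit, fell in LNCaP on plastic with stripped serum, from 51.8 and 53.8 to 23.4 and 32.1 CPM. Its log2 fold change was -0.87 ± 0.22 (adjusted p = 0.033 by edgeR), and it missed the threshold without plastic control replicate 1 (-0.91), replicate 2 (-0.83) or stripped replicate 1 (-0.63). On ACP in stripped serum the GCLM libraries stood at 47.8 and 43.8 CPM, 0.75 ± 0.22 above plastic with stripped serum, which did not pass (adjusted p = 0.067) but did without plastic stripped replicate 2 (1.05). LNCaP on ACP in stripped serum against ACP control gave 0 members by edgeR, against 5.37% of all genes (2 at an unadjusted p under 0.05, 0 by DESeq2). Against plastic with stripped serum it gave 0 by edgeR, against 6.12% of all genes (1 at an unadjusted p under 0.05, 1 by DESeq2, GCLM). The interaction of surface and serum gave 0 members by edgeR, 1 at an unadjusted p under 0.05 (CYP1B1, 2.51 ± 1.00) and 0 by DESeq2, against 0.307% of all genes.

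Androgen on ACP in LNCaP, against ACP with stripped serum, gave 0 members by edgeR, 2 at an unadjusted p under 0.05 and 0 by DESeq2, with 7.73% of all genes called. CYP1B1 stood at 3 and 3 reads before and 11 and 20 reads after, or 0.0970 and 0.105 against 0.380 and 0.653 CPM. Its log2 fold change of 2.30 ± 0.65 did not pass (adjusted p = 0.052 by edgeR). It passed in the fit of all lines (2.31). CYP1A1 was at 3.18 CPM in androgen replicate 1 and 0.783 CPM in replicate 2, against 0.485 and 1.16 CPM, so the groups overlapped. It passed without replicate 2 (1.95), and NQO1, at -0.26, passed without androgen replicate 1 (-0.76). All 4 androgen targets checked, KLK3, KLK2, TMPRSS2 and FKBP5, rose in LNCaP and in VCaP with androgen, by 0.91 to 4.77 on the log2 scale. In RWPE and MDAPCa2a none of the 4 passed, by edgeR.

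In VCaP, CYP1B1 rose with androgen. It was at 6.44 and 8.15 CPM on ACP with stripped serum and at 53.0 and 80.0 CPM with androgen, a 9.12-fold rise (log2 3.19 ± 0.30, adjusted p = 0.00053 by edgeR). It passed in each of the 4 fits that left out a library, at 2.86 to 3.47, the only one of the members' calls within a line to do so. TXNRD1 rose from 238 and 219 to 320 and 455 CPM (0.77 ± 0.23, adjusted p = 0.044), and lost its call without androgen replicate 2 (0.48) or stripped replicate 1 (0.87) or 2 (0.71). These were 2 of 10 members called, both higher, against 17.5% of 15614 genes, 8.67% higher and 8.80% lower.

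HMOX1 and GCLM were also higher in each VCaP androgen library than in each stripped one. HMOX1 read 1.71 and 0.369 CPM in stripped serum and 2.86 and 5.74 CPM with androgen (2.07 ± 0.69, adjusted p = 0.065 by edgeR). GCLM read 32.7 and 28.2, then 42.3 and 64.5 CPM (0.81 ± 0.28, adjusted p = 0.075). Without stripped replicate 1, HMOX1 was at 3.57 (adjusted p = 0.039). Neither passed with all libraries by edgeR, and both passed by DESeq2 and in the fit of all lines. Androgen replicate 2 was the higher of the pair for CYP1B1, TXNRD1, HMOX1, GCLM, AKR1C1, AKR1C2, AHRR and TIPARP. TIPARP was likewise higher with androgen without overlap, at 19.4 and 21.9 against 13.8 and 17.2 CPM, and so was AKR1C2 on 11 to 20 reads. NQO1 was lower without overlap, at 14.0 and 13.3 against 18.2 and 14.8 CPM. None of these passed by edgeR. CYP1A1, AHRR and AKR1C1 overlapped between the groups. The share of all genes without overlap between these groups was not counted, so lack of overlap is given as a description only. The difference between the androgen effects of VCaP and LNCaP gave 0 members by edgeR, 1 at an unadjusted p under 0.05 (HMOX1, 1.59 ± 0.68) and 0 by DESeq2, against 10.9% of all genes (5.39% higher, 5.51% lower). The HMOX1 difference was 3.03 without VCaP stripped replicate 1 and then passed (adjusted p = 0.019). For CYP1B1 it was 0.87 ± 0.82.

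The other 4 VCaP comparisons called 0 members by edgeR. ACP control against plastic control gave 0 at an unadjusted p under 0.05 and 0 by DESeq2, with 0.0448% of all genes called. ACP with stripped serum against plastic with stripped serum, which had 1 library, gave 0 and 0, with 0% of all genes called. Plastic with stripped serum against plastic control gave 3 at an unadjusted p under 0.05 and 1 by DESeq2, and ACP with stripped serum against ACP control gave 4 and 2. By edgeR at the adjusted threshold, 0.890% and 0.820% of all genes were called in these. CYP1B1 was lower in stripped serum on both surfaces, at 6.44 CPM against 19.9 and 14.7 CPM on plastic (-1.38 ± 0.37, adjusted p = 0.086) and at 6.44 and 8.15 against 14.0 and 17.1 CPM on ACP (-1.07 ± 0.29, adjusted p = 0.104). NQO1 was at 13.8 CPM against 6.33 and 7.56 CPM on plastic (1.03 ± 0.30, adjusted p = 0.101) and at 18.2 and 14.8 against 8.50 and 8.38 CPM on ACP (0.99 ± 0.25, adjusted p = 0.096). These 4 differences passed in the fit of all lines and not in the fit of VCaP alone. The same held for TXNRD1, lower in stripped serum on both surfaces. It was at 213 against 357 and 331 CPM on plastic (-0.65) and at 238 and 219 against 381 and 306 CPM on ACP (-0.57). It also held for TIPARP on ACP, at 13.8 and 17.2 against 9.96 and 9.59 CPM (0.69). VCaP had the widest spread of the lines, with a common coefficient of variation of 24.9% against 16.8% to 18.6%.

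In MDAPCa2a, CYP1A1 fell from 13 and 10.3 CPM on plastic control to 3.55 and 2.95 CPM on plastic with stripped serum. Its log2 fold change was -1.81 ± 0.33 (adjusted p = 0.038 by edgeR), the 1 of 9 members tested that passed, against 1.58% of 13626 genes (0.881% higher, 0.697% lower). AKR1C1 was too low to be tested. The call was lost without any 1 of the 4 libraries, at -1.65 without plastic control replicate 1, -1.98 without replicate 2, -1.93 without stripped replicate 1 and -1.71 without replicate 2. It was also lost in the fit of all lines (-1.84). CYP1A1 was at 2.67 to 5.30 CPM in the 4 ACP libraries, so both plastic control libraries stood above all 6 others. CYP1B1 went the other way, at 28.1 and 26.8 CPM against 43.6 and 52.5 CPM, without passing (0.84 ± 0.21, adjusted p = 0.080). DESeq2 called it. HMOX1 was at 5.59 and 7.09 against 3.82 and 2.66 CPM (-0.93 ± 0.30, adjusted p = 0.17), and at 1.03 to 2.21 CPM on ACP.

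The surface and androgen comparisons of MDAPCa2a called 0 members. ACP against plastic, both with stripped serum, gave 0 by edgeR, 2 at an unadjusted p under 0.05 and 0 by DESeq2, with 0.00734% of all genes called. Androgen against stripped serum on ACP gave 0 by edgeR, 0 at an unadjusted p under 0.05 and 0 by DESeq2, with 0% of all genes called. For CYP1B1 the androgen difference was 0.19 ± 0.20 with a 95% interval from -0.20 to 0.59, and for NQO1 -0.43 ± 0.25 with an interval from -0.92 to 0.06. Its plastic groups carried the protein coating and its ACP groups did not, which cannot be told apart from the mineral.

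**Figure D5:**
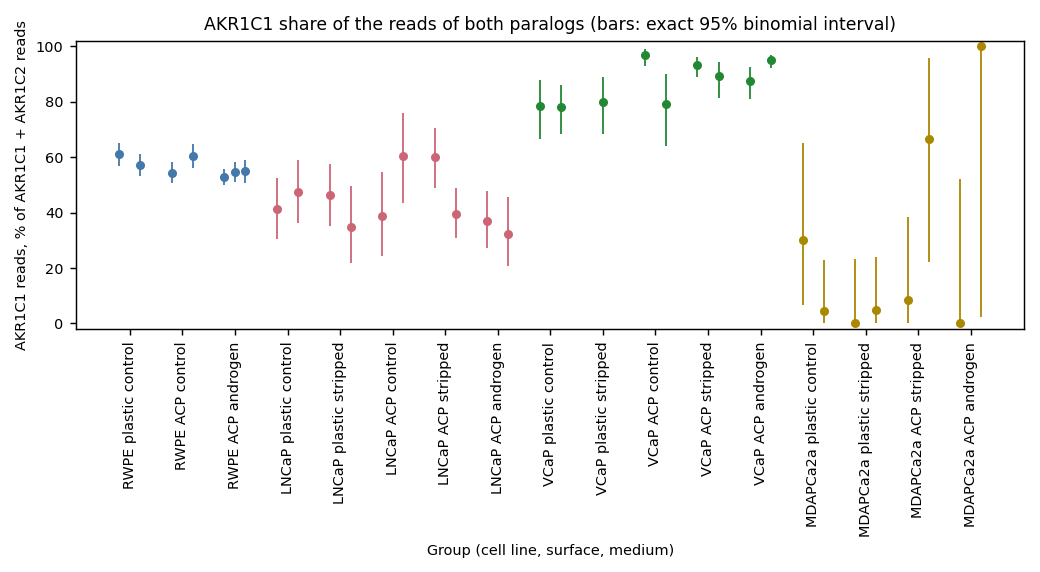
AKR1C1 reads as a percent of AKR1C1 plus AKR1C2 reads in every library of the 17 groups, with exact 95% binomial intervals. VCaP lies at 78.1% to 96.9%, above all RWPE and LNCaP libraries, and MDAPCa2a intervals are wide because at most 22 reads were counted.

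AKR1C1 and AKR1C2 are close paralogs, and VCaP stood apart from RWPE and LNCaP in their proportion. RWPE and LNCaP overlapped, MDAPCa2a had few reads, and a difference in proportion was not tested. AKR1C1 made up 52.8% through 54.8% to 61.0% of the reads of both genes in RWPE, where 517 to 1056 reads were counted per library. In LNCaP it made up 32.2% through 40.4% to 60.5% on 38 to 121 reads, and in VCaP 78.1% through 87.4% to 96.9% on 43 to 390 reads. All VCaP libraries lay above all RWPE and LNCaP libraries. The shares are not scaled to transcript length. In VCaP, AKR1C1 ran from 34 to 370 reads while AKR1C2 stayed at 5 to 21 reads. The counts of both genes are uncertain, since 50.8% of the 50-base windows of the AKR1C2 transcript AKR1C2-201 and 28.3% of those of AKR1C1-202 occur in the other gene. At 150 bases the shares were 20.6% and 11.3%. Neither the read length nor the handling of reads that match both genes is stated for these counts. AKR1C3, the third paralog and the enzyme that makes testosterone from androstenedione, followed yet another order, at 24.9 to 87.6 CPM in VCaP, 3.06 to 26.4 CPM in RWPE, 1.68 to 7.18 CPM in LNCaP and 0.0573 to 0.893 CPM in MDAPCa2a.

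The regulators themselves differed between lines. AHR was at 36.2 to 60.0 CPM in RWPE, 24.1 to 42.0 in MDAPCa2a, 6.75 to 11.4 in LNCaP and 1.66 to 5.36 in VCaP, the order of the AHRR medians except for the last 2 lines. Against RWPE, AHR was lower in LNCaP (-2.48 ± 0.30 in plastic control, -2.09 ± 0.28 on ACP with androgen) and VCaP (-4.44 ± 0.34 and -3.53 ± 0.31), with adjusted p of at most 5.4e-07 by edgeR. VCaP, the line with the least AHR, held CYP1B1 at 53 and 80 CPM with androgen and at 6.44 to 19.9 CPM in its other groups. A link between AHR and CYP1B1 levels was not tested. NFE2L2 was highest in RWPE at 142 to 199 CPM, then 58.2 to 88.5 in MDAPCa2a, 33.7 to 58.0 in LNCaP and 20.4 to 50.1 in VCaP, an order that TXNRD1 did not follow. ARNT, the AHR partner, fell in VCaP with androgen (-0.66 ± 0.20, adjusted p = 0.045) and KEAP1 passed in no comparison within a line. AHR and NFE2L2 passed in none of the 15 comparisons within a line either.

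Other genes of both pathways, from lists chosen with earlier results known, are given as counts beside the share of all genes called. Of 7 tested further AHR targets, 5 were lower and 1 higher in LNCaP than in RWPE in plastic control, with a median log2 difference of -5.71 against 0.01 over all genes, of which 57.4% were called. The lower ones included EREG, an epidermal growth factor family ligand, with 2471 and 2111 reads in RWPE against 1 and 4 in LNCaP. ALDH3A1, an aldehyde dehydrogenase (-5.71 ± 0.62, chosen after its values were seen), was another, and NEDD9, a scaffold protein, was the higher (0.78 ± 0.26). In VCaP 6 were lower and 1 higher (all genes 62.4%), and in MDAPCa2a 5 and 1 (56.7%). On ACP with androgen 6, 6 and 5 were lower and 1 higher in each, with 66.9%, 67.4% and 64.0% of all genes called. RWPE is also the line with high basal markers, and their part in these differences was not tested. Of 20 further NRF2 targets, 8 were higher and 7 lower in LNCaP than in RWPE in plastic control, with a median of -0.10. In VCaP 6 were higher and 11 lower, and in MDAPCa2a 8 and 8, with a median of 0.18. The counts on ACP with androgen were 8 and 7 in LNCaP, 7 and 11 in VCaP, and 6 and 11 in MDAPCa2a, where the median was -0.55. Calls in both directions were common against the same shares of all genes. ABCC3, a conjugate exporter, was the lowest of them in LNCaP relative to RWPE (-7.15 ± 0.49), and ME1, which makes NADPH, in MDAPCa2a (-4.88 ± 0.37).

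Within lines the AHR list gave most calls in LNCaP, where 3 of its genes could be tested. Plastic with stripped serum against plastic control called all 3, NEDD9 higher (1.00 ± 0.16) and STC2, a secreted glycoprotein, lowest (-1.75 ± 0.29), where 9.45% of all genes were called. It called 1 of 20 NRF2 targets higher and 3 lower. ACP against plastic control called 2 of the 3 lower, led by SLC7A5, an amino acid transporter (-1.57 ± 0.22), where 12.6% of all genes were called. ACP with stripped serum against ACP control called 1 higher, NEDD9 (2.16 ± 0.16), and 1 lower, where 5.37% of all genes were called. RWPE on ACP against plastic control had 2 of 19 further NRF2 targets higher and 2 lower, where 4.16% of all genes were called, led by AKR1C3 (1.61 ± 0.34) and ABCC3 (-1.05 ± 0.20). In RWPE with androgen 2 were higher and 0 lower against 19.1% of all genes, with SLC7A11, the cystine transporter, at 0.85 ± 0.23, and of the AHR targets ALDH3A1 fell (-1.58 ± 0.43) and EREG rose (1.19 ± 0.22). VCaP with androgen had 2 of 20 further NRF2 targets higher and 2 lower, a share near the 17.5% of all genes called. OSGIN1, an oxidative stress-induced growth inhibitor, rose (1.42 ± 0.41) and ABCC3 fell (-1.94 ± 0.50). GCLC, the catalytic partner of GCLM, also fell there (-1.08 ± 0.27, chosen after its values were seen), while GCLM stood at 0.81 ± 0.28. LNCaP with androgen had 0 higher and 2 lower of 20 against 7.73% of all genes, with AKR1C3 at -1.98 ± 0.33. None of the 19 NRF2 or 3 AHR targets tested passed in the 3 MDAPCa2a comparisons, nor of the 20 and 4 tested in the other 4 VCaP comparisons, by edgeR. At an unadjusted p under 0.05, 0 to 7 of the NRF2 and 0 to 1 of the AHR targets were counted in each of these, and DESeq2 was not counted over the lists.

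The AHR targets had positive correlations over the 17 groups, which fell once line means were taken off. As a description, with groups sharing lines and library sets, Pearson's r of mean log2 CPM was 0.83 between CYP1A1 and AHRR and between CYP1A1 and TIPARP, and 0.81 between AHRR and TIPARP. CYP1B1 reached 0.63 with CYP1A1, 0.78 with AHRR and 0.65 with TIPARP. After each line's own mean was taken off, the first 3 were 0.16, 0.48 and -0.30, and those of CYP1B1 were 0.04, -0.02 and 0.19. GCLM and TXNRD1 kept more of theirs, at 0.79 before and 0.67 after. For NQO1 and AKR1C1 r went from -0.43 to 0.61. Over all genes tested, the 17-group pattern of CYP1B1 was most like that of F3 (r = 0.967), that of TIPARP most like CCSER2 (0.975), that of NQO1 most like SLC35B3 (0.983) and that of TXNRD1 most like GRPEL1 (0.955). CYP1A1 was most like OAT (0.918) and AHRR most like MST1L (0.965). Each is the highest r over 17323 tested genes, so it cannot be set against r with a few named members. With line means taken off, KLK3 was among the 3 genes most like GCLM (0.936), though not over the 13 groups other than plastic control, and INSM1 and F3 led for CYP1B1 (0.840 and 0.831).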

How the data were processed

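RNA of 34 libraries was poly(A) selected, per the labels' protocols. The deposited values are whole-number read counts per gene, made by the authors with STAR, HTSeq and the hg19 build, per the submitters' processing notes, without versions; neither strand use nor read length is stated, so a gene and an antisense partner cannot be told apart. Of 26336 genes, 4335 had 0 reads in every library. In RWPE plastic control, 16 values in 12 genes had the form of spreadsheet dates (44562 to 44889), none of them a member.

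Counts were tested with edgeR 4.0.16 (R 4.3.3; quasi-likelihood F test after TMM scaling, low genes dropped by filterByExpr at minimum count 10, Benjamini-Hochberg threshold 0.05), within a line on that line's libraries and between lines on all 34. CPM used TMM sizes over all libraries, and log2 CPM a prior count of 1. A log2 fold change divided by the root of F gave its SE. Called means past the threshold. Shares of all genes are by edgeR at the adjusted threshold, so they are no background for counts at an unadjusted p or by DESeq2. The share of all genes without overlap between groups was not counted. The 29 comparisons were 15 within a line, 12 between lines and 2 interactions. Alternatives were DESeq2 1.42.0, other size factors, no filter, 1 fit of all lines, a replicate block and leaving out each library. The procedure was tested on simulated data. Promoters came from RefSeq GRCh38.p14 and transcript windows from GENCODE v29.

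Named genes were the 10 members, AHR, ARNT, NFE2L2, KEAP1 and AKR1C3, and of each pathway list the called genes with the largest rise and fall. The members and lists were chosen with earlier results of these data known. Total counts of 15440141 to 44779246 reads set the precision. Intervals of ratios and read shares cover counting error only. Those of log2 fold changes came from the SE with a normal quantile, which is narrow for the few libraries of a line.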

Additional observations from a re-analysis of the deposited data

How the results depend on the processing

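No called value changed its sign under any alternative. Counts of members called moved by over 1.5 times, or from or to 0, in these comparisons within a line. In RWPE, ACP against plastic control gave 1 and, in the fit of all lines, 0; androgen gave 1, with DESeq2 5, without a filter 3 and in the fit of all lines 0. In LNCaP, ACP with stripped serum against ACP control gave 0 and without a filter 1, against plastic with stripped serum 0, with DESeq2 1 and without a filter 1, and androgen 0, in the fit of all lines 1 and without a filter 1. In VCaP, stripped serum gave 0 on plastic (DESeq2 1, all lines 3, no filter 1) and 0 on ACP (DESeq2 2, all lines 4, no filter 1), and androgen gave 2 (DESeq2 4, all lines 4, no filter 4). In MDAPCa2a, stripped serum on plastic gave 1 (DESeq2 2, all lines 0, no filter 2). The cause was not tested. Between lines, counts moved by 1 in plastic control for MDAPCa2a minus LNCaP (6, DESeq2 7), MDAPCa2a minus VCaP (8, DESeq2 and other size factors 7), VCaP minus LNCaP (5, no filter 4) and MDAPCa2a minus RWPE (5, no filter 6). On ACP with androgen they did so for VCaP minus RWPE (10, DESeq2 and other size factors 9), MDAPCa2a minus RWPE (5, no filter 6) and MDAPCa2a minus LNCaP (8, no filter 7). Leaving out the genes with date-like values (chosen after seeing the data) moved 0 counts.

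Leaving out 1 library gave 0 to 1 members for RWPE on ACP, 0 to 5 for RWPE with androgen, 0 to 1 and 0 to 2 for LNCaP ACP and stripped serum against plastic control, 0 to 1 for each other LNCaP comparison, 1 to 2 for VCaP with androgen, 0 for MDAPCa2a with stripped serum and 0 to 1 for the difference of androgen effects. Between lines it gave 7 to 9 for VCaP minus RWPE, 3 to 5 for VCaP minus LNCaP and 6 to 7 for MDAPCa2a minus VCaP in plastic control, and 4 to 7, 6 to 7 and 3 to 4 for VCaP minus LNCaP, MDAPCa2a minus LNCaP and MDAPCa2a minus VCaP on ACP with androgen.

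Replicate numbers did not pair the libraries throughout. Over 25 pairs of groups the correlation of their deviations ran from -0.34 to 0.42, above 0.1 in 6. The highest was between the stripped and androgen groups of MDAPCa2a on ACP, which were compared above without a block. A replicate block gave 3 members for RWPE on ACP, 5 for RWPE with androgen, 1 for VCaP with androgen and 5 in place of 8 for MDAPCa2a minus LNCaP on ACP with androgen. Between lines it also gave 6 in place of 9 for LNCaP minus RWPE and for VCaP minus RWPE, 4 of 5 for VCaP minus LNCaP and 7 of 8 for MDAPCa2a minus VCaP in plastic control, and 8 of 10 for VCaP minus RWPE on ACP with androgen. With the block, HMOX1 in VCaP minus RWPE in plastic control (-1.63, adjusted p = 0.174 by edgeR) and AKR1C2 in LNCaP minus RWPE (-1.62, adjusted p = 0.133) did not pass. Low counts limit CYP1B1 in LNCaP, AKR1C2 outside RWPE and AKR1C1 in MDAPCa2a.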
